A study of Bos taurus with 9 samples.

Results

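The distal part of cattle chromosome 18 held the most crowded 1 Mb window of H3K9me3 peaks in the genome after butyrate. The regions described here are the 1959 butyrate H3K9me3 peaks with their start between chr18:44000001 and chr18:66000000 on the UMD3.1 assembly, of 89487 peaks in that list. The span was selected on the butyrate H3K9me3 list itself, because peaks were crowded there. The number of butyrate H3K9me3 peaks in the span, their crowding and their rise over control are therefore a description and not a finding.

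MDBK is an established line of epithelial cells from a bovine kidney. Chromatin immunoprecipitation with sequencing (ChIP-seq) was run with 4 antibodies: against H3K9ac and H3K27ac, acetyl marks of active regulatory DNA, against RNA polymerase II (Pol II), and against H3K9me3. Each antibody was used on 1 library of untreated control cells and on 1 library of cells given 5 mM butyrate for 24 h, which gave 8 peak lists. Butyrate is a short-chain fatty acid of the rumen and gut that inhibits histone deacetylases. All control libraries were sequenced in lane 4 and all butyrate libraries in lane 5, so lane and treatment cannot be told apart. There were no replicates, so no comparison below has a test, and every interval is an exact 95% interval that covers counting error only.

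H3K9me3 is trimethylation of lysine 9 of histone H3, a mark of silent chromatin. It is laid down at many repeats and zinc finger gene clusters by the methyltransferase SETDB1, which the corepressor TRIM28 brings to sites bound by KRAB zinc finger proteins. Many KRAB zinc finger genes lie in tandem clusters and carry H3K9me3 themselves. The distal part of cattle chromosome 18 corresponds to the long arm of the human chromosome richest in such genes. In the RefSeq gene table of the newer assembly ARS-UCD2.0, chromosome 18 held 100 of the 341 coding genes named as zinc finger genes by their symbol. That was 8.12% of its 1232 coding genes, against 1.61% of the 21162 coding genes of all chromosomes. The next chromosome by count, 25, held 31.

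The zinc finger genes of chromosome 18 leaned to its distal part in gene order. The first 616 coding genes held 33 of them and the last 616 held 67, of which 32 lay among the last 123 genes. Runs were read across genes that have only a LOC symbol. The longest run had 19 zinc finger genes, from ZNF146 to ZFP30, with 4 LOC genes among them. It began after COX7A1, which encodes a subunit of cytochrome c oxidase, with 38.6% of the coding genes before it and so in the first 616. A run of 10 from ZNF283 to ZNF180 lay between LYPD5 and CEACAM20 with no other gene among them, after 53.9% of the genes. A run of 8 from ZNF543 to ZNF134, with 10 LOC genes among them, came after 95.4% of the genes. It followed AURKC, a kinase of meiosis, and preceded VN1R1, a vomeronasal receptor gene. Runs of 4 or 5 zinc finger genes, with 3, 18 and 0 LOC genes among them, went from ZNF613 to ZNF350, from ZNF677 to ZNF331 and from ZNF581 to ZNF524. The gene table and the peak lists are on different assemblies, so no peak was assigned to a gene. The start of the span was not placed in this gene order either. The first 616 genes are thus not the part outside the span, and which runs lie inside it was not determined.

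In control cells the span held 251 H3K9me3 peaks and in butyrate-treated cells 1959. Per Mb this was 11.4 peaks (95% interval 10.05 to 12.9) in control and 89.1 (85.2 to 93.2) in butyrate. The covered length went from 61.9 kb to 637.3 kb, or from 0.282% to 2.90% of the 21.98 Mb up to the last peak on the chromosome. The span made up 0.826% of the nuclear genome and held 2.19% of its butyrate H3K9me3 peaks. The log2 ratio of butyrate over control was 2.96 (2.77 to 3.16).

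The rest of chromosome 18 looked like the other chromosomes in the butyrate list. Its first 44 Mb went from 268 to 1417 H3K9me3 peaks, a log2 ratio of 2.40 (2.21 to 2.60), and reached 32.2 peaks per Mb. The other nuclear chromosomes went from 25104 to 86102 peaks, a log2 ratio of 1.78 (1.76 to 1.80), and reached 33.2 per Mb. In control the rest of chromosome 18 had 6.09 peaks per Mb, which was below the 9.68 of the other chromosomes. Chromosomes 5 and 14 carried many control peaks, and without them the other chromosomes had 7.64 per Mb in control and a log2 ratio of 1.98. The span held 2.77 times as many butyrate peaks per Mb as the rest of the chromosome (2.58 to 2.97). In the control H3K9me3 list it held 1.87 times as many (1.57 to 2.24), and 1.18 times as many per Mb as the other nuclear chromosomes (1.04 to 1.34). Both lists were called against the same input, so this is a description and no independent check.

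**Figure D1:**
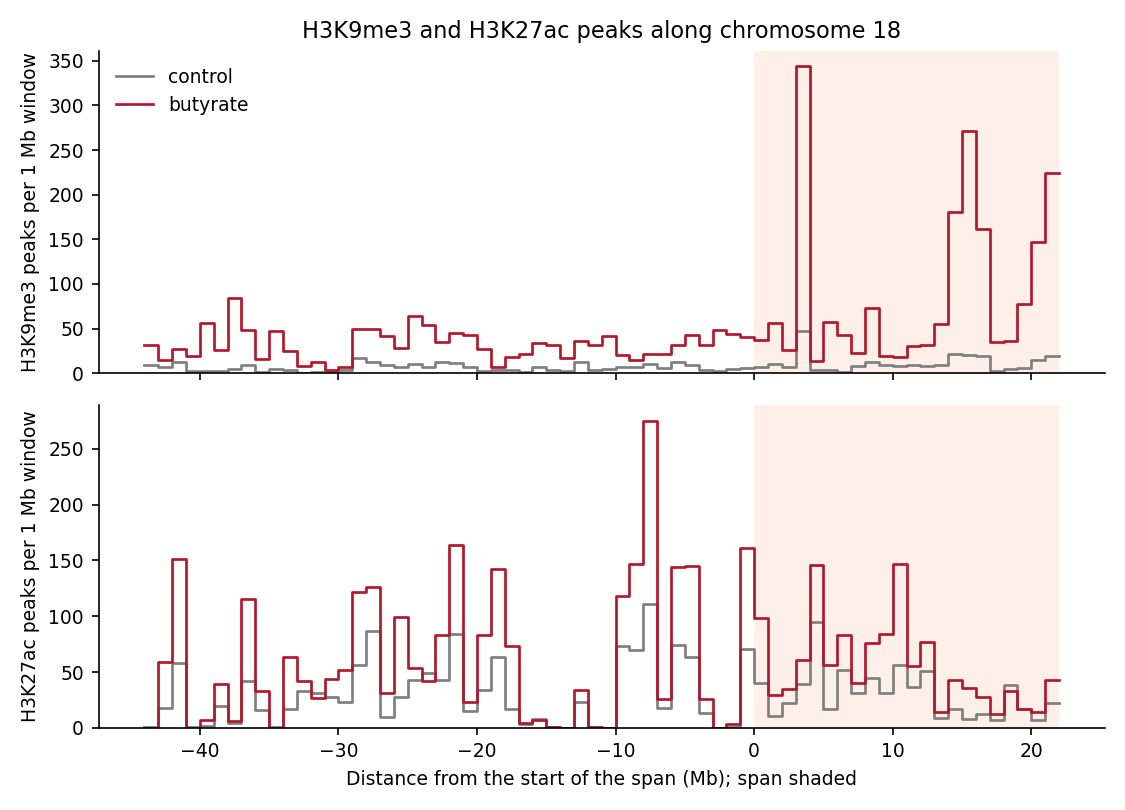
Number of H3K9me3 peaks (top) and H3K27ac peaks (bottom) in each 1 Mb window of chromosome 18, against the distance of the window from the start of the span in Mb, with control in grey, butyrate in red and the span shaded. Butyrate H3K9me3 peaks stand in 3 groups inside the span, the highest with 344 peaks in 1 window, while no window of the rest of the chromosome passed 84.

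The members were not spread evenly. Of the 22 windows of 1 Mb in the span, 6 held 100 or more members, a limit set after the values were seen, against 1.57% of the 2677 windows of the nuclear genome. These 6 dense windows held 1328 members, or 67.8%. They stood at 3 places. The window from 47 Mb held the most members, 344, with 47 peaks in control. The 3 neighbouring windows from 58 Mb held 180, 271 and 162 members, with 22, 20 and 19 peaks in control. The final 2 windows, from 64 Mb, held 147 and 224 members, with 15 and 19 in control. Each dense window was thus also above the median of 7.5 control peaks that the other 16 windows had.

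Those 16 windows had a median of 35.5 members (14 to 77), close to the median of 31 in the rest of the chromosome. The fewest members, 14, were in the window from 48 Mb, directly beside the fullest one. Outside chromosome 18, 36 windows held 100 or more peaks, of which 16 were on chromosome 5 and 11 on chromosome 14. The highest of them, from 78 Mb on chromosome 5, held 153 peaks with 59 in control, and 5 of the 6 dense windows of the span held more. High numbers over few control peaks were found elsewhere too. The window from 80 Mb on chromosome 16 held 145 peaks with 14 in control, and the window chr1:149000001-150000000 held 134 with 16, much like the dense window from 64 Mb.

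In windows of 100 kb the span had a median of 4 members, with 29 of 220 windows empty and a highest value of 44. In the span 40 windows held 20 or more members, against 0 of 440 in the rest of chromosome 18 and 75 of 25954 on the other chromosomes. In control no window of the span passed 9 H3K9me3 peaks. Of the 5 windows with the most bases covered by members, 4 lay between 47 and 48 Mb. The window chr18:47600001-47700000 led with 44 members over 16.588 kb and 4 control H3K9me3 peaks. The window chr18:47800001-47900000 followed with 44 members over 16.398 kb and also 4 control peaks. The window chr18:47000001-47100000 had 41 members over 16.153 kb and 8 control peaks, and differed from the others in its active marks, with 23 butyrate H3K27ac peaks and 15 butyrate H3K9ac peaks. The window chr18:64700001-64800000 had 43 members over 15.315 kb and 1 butyrate H3K27ac peak. The window chr18:47200001-47300000 had 44 members over 15.03 kb and 9 butyrate H3K27ac peaks. At the scale of 100 kb, heavy H3K9me3 cover therefore occurred in windows with few and, in 1 case, with many acetyl peaks. The run of close members from chr18:47050968 to chr18:47438464, which began in that window, held 17 butyrate H3K27ac peaks in all. The windows chr18:47100001-47200000 and chr18:47200001-47300000 inside it held 3 and 9 of them. Most H3K27ac peaks of the window chr18:47000001-47100000 thus lay before that run.

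The values showed no step at the start of the span. The last window before it held 6 butyrate H3K9me3 peaks and the first window inside it held 0. The last peak before the border was chr18:43990384-43991197 and the first member was chr18:44166513-44166711. At the distal end the last full window held 9 members, and the last of them was chr18:65862415-65862616. Placing the start at 42 or 46 Mb gave a density 2.68 or 2.84 times that of the rest of the chromosome.

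A window was counted as risen in H3K9me3 where its peak number plus 1 was at least 4 times that of control. Of the windows of the nuclear genome with a peak in either list, 26.0% met this limit, against 98 of 198 in the span (49.5%) and 134 of 380 in the rest of chromosome 18 (35.3%). These shares come from the contrast that chose the span and are given as a description. Where members lay thick, control H3K9me3 also tended to be present. Over the 220 windows of the span the covered bases of both H3K9me3 lists had a Spearman rho of 0.57 and a Pearson r of 0.64, against 0.20 and 0.20 over the 440 windows of the rest. Neighbouring windows share domains, and all windows share the libraries.

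Members were long as well as many. Their median length was 267 bp (260 to 274), against 232 bp in the rest of chromosome 18 and 232 bp on the other chromosomes. In the span 232 members, or 11.8%, were at least 500 bp long (10.4% to 13.4%), against 3.25% and 3.67%. The span therefore held 6.75% of all nuclear butyrate H3K9me3 peaks of at least 500 bp, and 19 of the 189 of at least 1 kb. The shortest length in the list, 199 bp, made up 16.9% of the members and 28.5% of the peaks in the rest of the chromosome. Length went with crowding inside the span too. In the dense windows the median was 280 bp and 14.1% of members reached 500 bp, against 249 bp and 7.13% in the other windows of the span. Peak length is a measure of the list that chose the span, so these differences are descriptive. In control, 4 of the 251 H3K9me3 peaks of the span reached 500 bp, and the longest was chr18:59227952-59228644 at 693 bp.

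**Figure D2:**
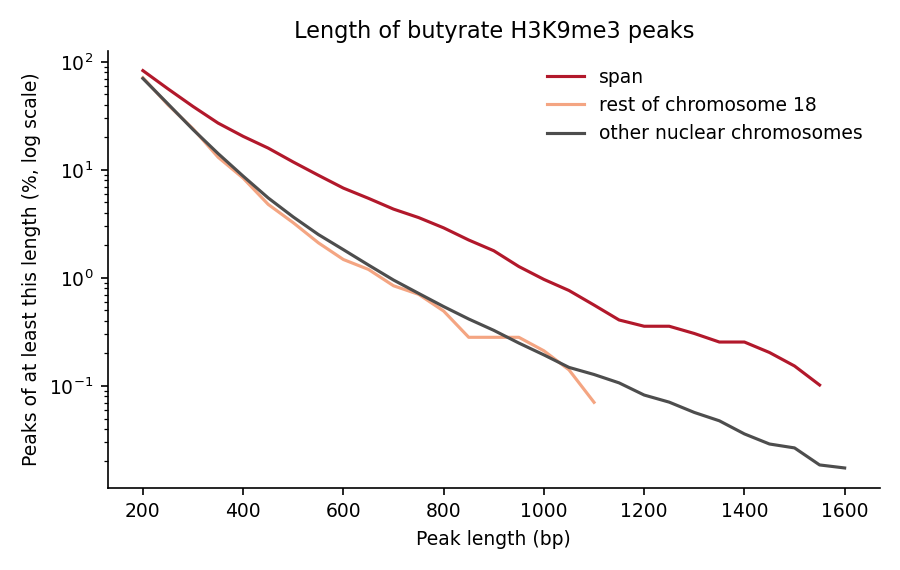
Percentage of butyrate H3K9me3 peaks (log scale) that are at least as long as the length on the horizontal axis in bp, for the span, the rest of chromosome 18 and the other nuclear chromosomes. The curve of the span lies above both others up to 1550 bp, with 11.8% at 500 bp against 3.25% and 3.67%, while the other 2 curves nearly coincide up to about that length.

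The longest member, chr18:65403648-65405228, was 1581 bp long. It met no peak of the other 7 lists, and its nearest control H3K9me3 peak was 9.49 kb away. The next 4 by length met a control H3K9me3 peak. They were chr18:45731782-45733332 at 1551 bp, chr18:59001193-59002706 at 1514 bp, chr18:60279417-60280893 at 1477 bp and chr18:56945275-56946693 at 1419 bp. No butyrate H3K27ac, H3K9ac or Pol II peak met any of the 5. The members of 1551, 1514 and 1419 bp each also met a control acetyl or control Pol II peak. Only 3 of the 5 lay in dense windows, so the longest members were not confined to them.

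Neighbouring members lay a median of 1.90 kb apart, against 13.7 kb between peaks in the rest of chromosome 18 and 12.7 kb on the other chromosomes. Less than 1 kb separated 36.4% of neighbours in the span and 9.53% in the rest of the chromosome. Runs of 5 or more members with gaps under 20 kb were called domains. The span had 65 of them, which held 1663 members (84.9%) and stretched over 25.8% of the span. The corresponding shares of peaks were 37.1% in the rest of chromosome 18 and 42.1% on the other chromosomes. The control list gave 6 domains in the span with 44 peaks.

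The 3 longest domains were longer than any outside the span. The longest, chr18:47517357-47970739, ran over 453.4 kb with 165 members and 17 control H3K9me3 peaks. A second at chr18:59434719-59846628 ran over 411.9 kb with 126 members and 10 control peaks. The domain chr18:47050968-47438464 ran over 387.5 kb with 159 members and 27 control peaks, and was the most crowded of the 5 longest. Next came chr18:64695970-65051961, at 356.0 kb with 97 members, and chr18:58860668-59127723, at 267.1 kb with 74 members. The longest domain elsewhere, chr14:34853006-35223754, ran over 370.7 kb with 78 peaks. Acetyl peaks were found inside each of the 5, from 3 butyrate H3K27ac peaks in the fourth longest to 17 in the third longest.

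Of the 251 control H3K9me3 peaks of the span, 110 met a member by at least 1 bp. This was 43.8% (37.6% to 50.2%), against 16.0% in the rest of chromosome 18 and 15.8% on the other chromosomes. Members covered 2.90% of the span, and butyrate peaks covered 0.860% and 0.892% of the others, so a peak placed anywhere meets more of them in the span. In the dense windows 73 of 142 control peaks met a member (51.4%), against 37 of 109 in the other windows (33.9%). Members covered 450.0 kb of the 5.98 Mb of dense windows and 187.3 kb of the 16 Mb of the others. The opportunity to meet a member was thus also higher in the dense windows. Seen from the members, 114 met a control peak, or 5.82% (4.82% to 6.95%), against 3.11% in the rest of chromosome 18 and 4.61% on the other chromosomes. Cover by control H3K9me3 peaks had the same order, at 0.282%, 0.143% and 0.236%, so nothing beyond cover is read from these shares. Members that met a control peak were longer, with a median of 323 bp (285 to 383), than those that did not, with 263 bp (257 to 271). A longer peak also has more bases with which to meet another.

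No peak of the other 7 lists met 1703 members, or 86.9% (85.4% to 88.4%), which was near the 88.2% of H3K9me3 peaks in the rest of chromosome 18 and above the 80.7% on the other chromosomes. An acetyl or Pol II peak of butyrate-treated cells met 79 members, or 4.03% (3.21% to 5.00%), against 6.14% (4.95% to 7.52%) and 9.99%. Standing clear of the other lists was thus common to H3K9me3 peaks of the whole chromosome. Butyrate H3K27ac met 37 members, or 1.89% (1.33% to 2.59%), against 3.88% of H3K9me3 peaks in the rest of chromosome 18 and 5.94% on the other chromosomes. Butyrate H3K9ac met 21 members, or 1.07% (0.665% to 1.63%), against 3.18% and 5.39%. Both shares in the span were thus below those of the other places, with intervals that do not overlap. In the reverse direction the shares of the span were not below those of the rest of chromosome 18. Members met 2.93% of the butyrate H3K27ac peaks of the span, against 1.95% in the rest and 2.81% elsewhere. For butyrate H3K9ac the shares were 3.63%, 3.09% and 4.13%. Members covered 2.90% of the span, and butyrate H3K9me3 peaks covered 0.860% and 0.892% of the others. This raises the reverse shares of the span, so nothing is read from them. Butyrate Pol II met 41 members, or 2.09% (1.51% to 2.83%), against 1.13% (0.647% to 1.83%) in the rest of chromosome 18 and 2.35% on the other chromosomes. After butyrate, H3K27ac cover of the genome was 2.14% in the span, 2.63% in the rest and 3.06% elsewhere. H3K9ac cover was 0.812%, 1.13% and 1.40%, so the opportunity to meet either acetyl mark was also lower in the span. Butyrate Pol II cover was 0.350%, 0.240% and 0.320%, so the opportunity to meet Pol II was higher in the span than in the rest. The median distance from a member to the nearest butyrate H3K27ac peak was 21.4 kb, against 63.1 kb in the rest of chromosome 18 and 33.0 kb on the other chromosomes.

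**Figure D3:**
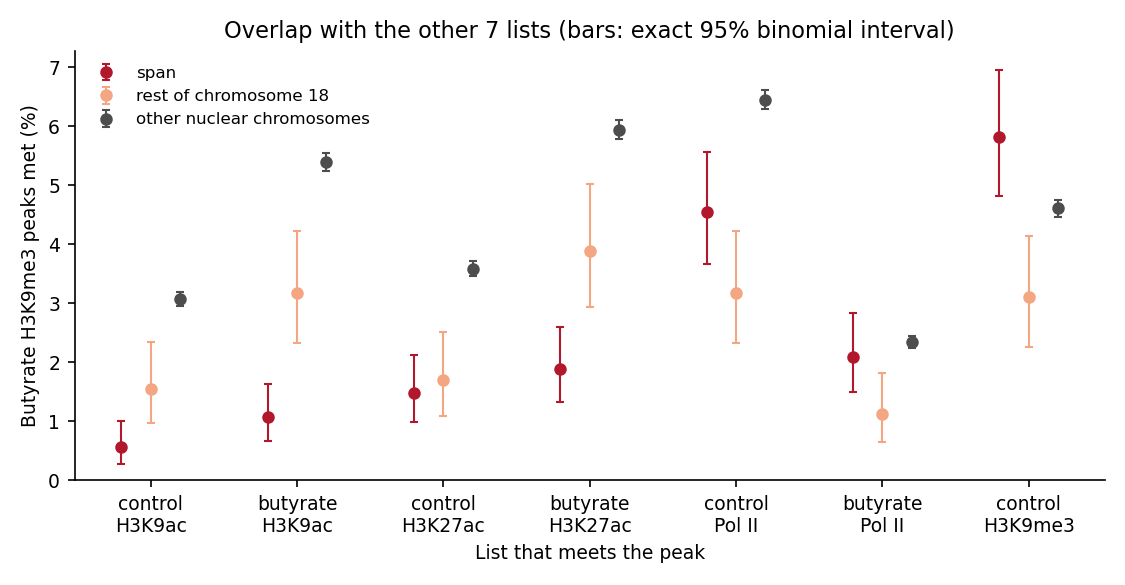
Percentage of butyrate H3K9me3 peaks that share at least 1 bp with a peak of each of the other 7 lists, with exact 95% binomial intervals, in the span, the rest of chromosome 18 and the other nuclear chromosomes. Shares in the span lie below the other 2 places for both acetyl marks after butyrate, at 1.89% for H3K27ac and 1.07% for H3K9ac, and above them for control H3K9me3, at 5.82%. Cover of the span was also lower for both acetyl marks and higher for control H3K9me3, which shifts these shares the same way.

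H3K27ac, which did not choose the span, rose there about as much as elsewhere. The span went from 664 to 1227 H3K27ac peaks, a log2 ratio of 0.89 (0.75 to 1.02), against 1.03 (0.94 to 1.13) in the rest of chromosome 18 and 0.99 (0.98 to 1.00) on the other chromosomes. By windows of 100 kb, 68 of 165 at least doubled in H3K27ac peaks plus 1 (41.2%), near the 43.9% of all windows with such a peak. Of the control H3K27ac peaks in the span, 58.6% (54.7% to 62.4%) met a butyrate H3K27ac peak, which was less than the 67.4% of the rest and the 65.9% of the other chromosomes.

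The rise of H3K9ac in the span was the smallest of the 3 places by its point value. The span went from 420 to 579 peaks, a log2 ratio of 0.46 (0.28 to 0.65), against 0.72 (0.61 to 0.84) in the rest of chromosome 18 and 0.63 (0.62 to 0.65) on the other chromosomes. The interval of the span overlaps both others, and H3K9ac peaks of at least 500 bp numbered 53 in control and 52 in butyrate. Such long H3K9ac peaks were also fewer after butyrate in the rest of chromosome 18, at 191 and 173, and on the other chromosomes, at 14881 and 11967. By windows, 57 of 162 at least doubled (35.2%), below the 46.2% of all windows and the 51.7% of the rest of the chromosome. Of the control H3K9ac peaks in the span, 38.8% met a butyrate H3K9ac peak, against 47.6% in the rest.

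The number of Pol II peaks was level in the span and lower after butyrate elsewhere. There were 282 in control and 283 in butyrate, a log2 ratio of 0.0051 (-0.24 to 0.25). The rest of chromosome 18 went from 681 to 414, a log2 ratio of -0.72 (-0.90 to -0.54), and the other chromosomes from 55262 to 30528, a ratio of -0.86 (-0.88 to -0.84). The interval of the span overlaps neither. By windows, Pol II peaks plus 1 fell to 1/2 or less in 58 of 186 windows of the span (31.2%), against 57.4% of all windows and 54.8% of the rest. They at least doubled in another 58 (31.2%), against 12.9% of all windows and 15.1% of the rest. Many windows held few Pol II peaks, and the gain or loss of the only peak of a window already meets these limits. In control the span had 0.83 times the Pol II density of the rest of the chromosome (0.72 to 0.95), and after butyrate 1.37 times (1.17 to 1.60).

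The Pol II peaks in the span were largely different ones in the 2 lists. Only 15 of the 282 control peaks met a butyrate Pol II peak (5.32%), and the share was low in the rest (2.50%) and on the other chromosomes (4.61%) too. Butyrate Pol II peaks in the span met butyrate H3K27ac in 43.8% of cases (38.0% to 49.8%), against 59.2% in the rest of chromosome 18 and 59.4% elsewhere. Members met 86 of the 282 control Pol II peaks, or 30.5% (25.2% to 36.2%), against 6.61% in the rest and 10.001% elsewhere. After butyrate they met 38 of the 283, or 13.4% (9.68% to 17.96%), against 3.86% and 6.57%. The wider cover by members, 2.90% of the span against 0.860% and 0.892%, was part of the choice of the span and raises these shares, so nothing is read from them. In control, 8.16% of the Pol II peaks of the span met H3K27ac, against 7.34% in the rest and 9.47% elsewhere. Over the 220 windows the covered bases of members had a Spearman rho of 0.40 with those of control Pol II and 0.05 with those of butyrate Pol II, against 0.23 and -0.04 over the 440 windows of the rest. Control H3K9me3 and control Pol II had a rho of 0.39 in the span and 0.40 in the rest.

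**Figure D4:**
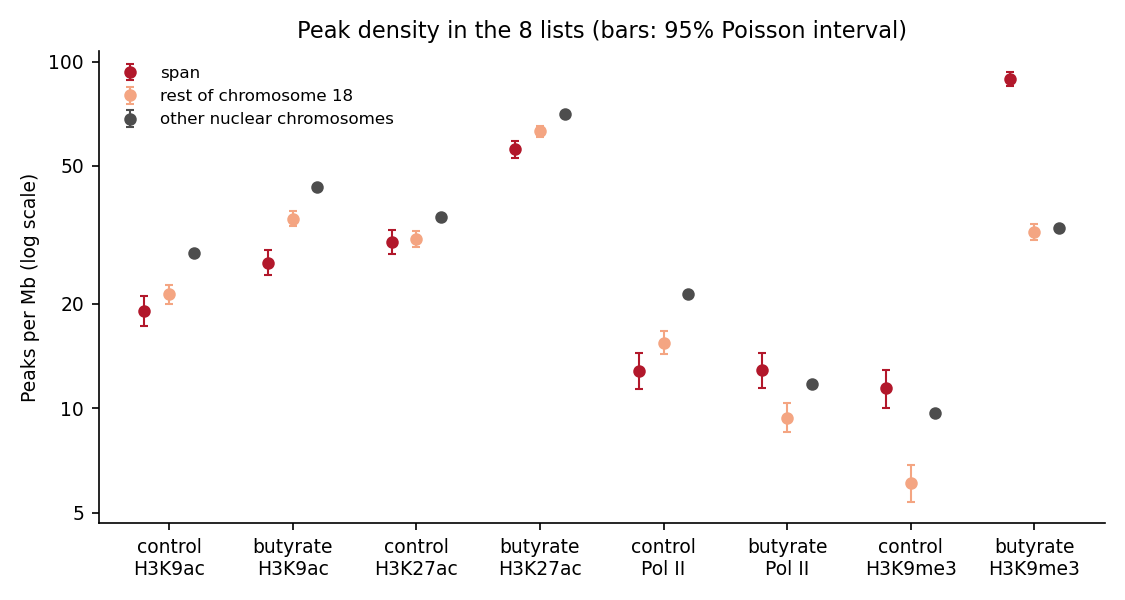
Peaks per Mb (log scale) in each of the 8 lists for the span, the rest of chromosome 18 and the other nuclear chromosomes, with 95% Poisson intervals. The span stands apart upward in the butyrate H3K9me3 list, at 89.1 against 32.2 and 33.2, and the Pol II density of the span is level between control and butyrate, at 12.8 and 12.9.

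The dense windows and the other windows of the span differed in H3K27ac and Pol II density, in opposite directions. The 6 dense windows had 37.6 butyrate H3K27ac peaks per Mb, against 62.6 in the other 16. From control they went from 105 to 225 H3K27ac peaks, a log2 ratio of 1.10 (0.76 to 1.45), against 0.84 (0.69 to 0.99) in the other windows. H3K27ac thus rose in both kinds of window, from a lower level in the dense ones. For H3K9ac the density after butyrate was nearly the same in both, at 26.6 and 26.3 per Mb. Pol II peaks were denser in the dense windows, at 19.4 per Mb against 10.4 in control and 15.5 against 11.9 after butyrate. Their number went from 116 to 93 in the dense windows, a log2 ratio of -0.32 (-0.73 to 0.09), and from 166 to 190 in the others, a ratio of 0.19 (-0.11 to 0.50). These 2 intervals overlap and both hold 0.

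**Figure D5:**
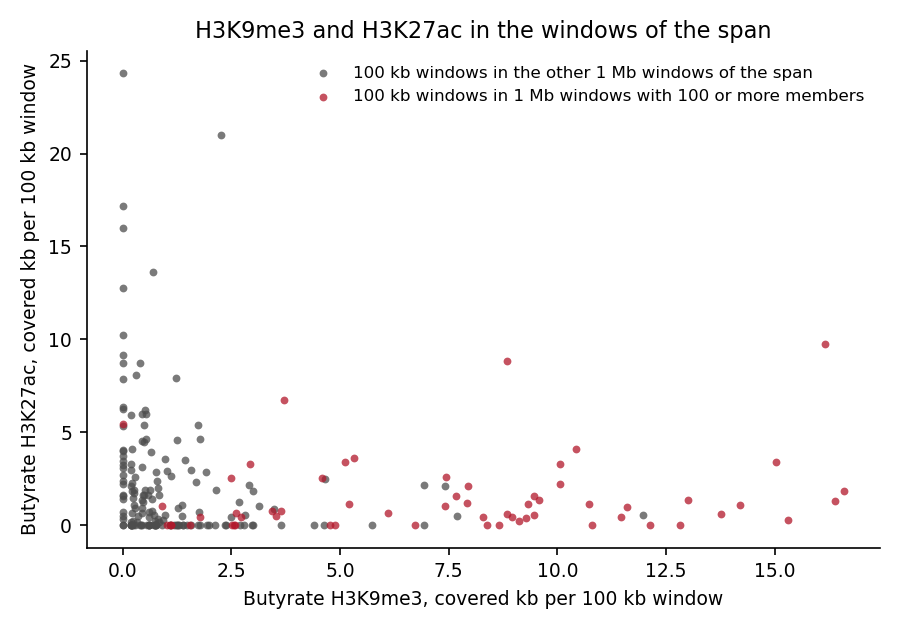
Kilobases covered by butyrate H3K27ac peaks against kilobases covered by members, for each 100 kb window of the span, with windows inside the 6 dense 1 Mb windows in red and the others in grey. Most windows with heavy H3K27ac cover have little H3K9me3 and the reverse, giving a Spearman rho of -0.22, but a few dense windows, such as one with 16.153 kb of members and 9.738 kb of H3K27ac, carry both. Within such a window the marks can lie side by side, as they mostly do in the window named.

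Over the 220 windows of the span, the cover by members and by butyrate H3K27ac had a Spearman rho of -0.22, and -0.15 was found over the 440 windows of the rest of the chromosome. For butyrate H3K9ac the value in the span was 0.015. These weak relations are descriptions over windows of the same libraries. In bulk cells, overlap or its absence in peak lists does not say whether both marks lay on the same molecules.

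Across the 30 chromosomes of the gene table, the number of zinc finger genes and the density of butyrate H3K9me3 had a Spearman rho of 0.10. Chromosome 25, second by zinc finger genes, had 33.7 butyrate H3K9me3 peaks per Mb, near the level of the genome, and chromosome 7, with 26 such genes, had 31.5. Chromosome 18 as a whole had 51.2. The log2 ratio of butyrate over control was 2.26 on chromosome 25, 2.01 on chromosome 7 and 2.70 on chromosome 18. Across the chromosomes this ratio and the number of zinc finger genes had a rho of 0.14, and of 0.050 without chromosome 18. These are averages of whole chromosomes, and zinc finger clusters on other chromosomes were not measured here.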

How the data were processed

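The deposited lists give only where each peak lies, as a start and an end in bp, with no score, height or read count. The submitters' processing notes name Trim Galore 0.4.1, BWA, MACS2 and the cattle assembly UMD3.1. The authors, as their methods describe, dropped reads that failed the quality filter of the sequencer, aligned the others to UMD3.1.1 with BWA, kept uniquely placed reads with few mismatches, and ran MACS2 on every library by itself against the MDBK input. The input was not analysed here, and sequencing depth was not used here. The number of peaks in a list depends on depth, so differences between lists are less firm than differences between places within a list. Starts are printed as the file value plus 1 and lengths are end minus start. The shortest length in every list was 199 bp, so starts may be 1 bp off.

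A peak belonged to a part by its start and to a window by its midpoint. Chromosome 18 was taken to end at the last peak of any list, and the mitochondrial genome was left out. Peaks met where they shared at least 1 bp. Peak numbers had exact Poisson intervals, and log2 ratios, shares and densities exact binomial intervals, all at 95%. Medians had order-statistic intervals. Intervals treat peaks as independent, which crowded peaks are not. Window shares are counts plus 1 at 2-fold, or 4-fold for H3K9me3, over windows with a peak in either list. At 2-fold, the gain or loss of the only peak of a window is thus counted. The named regions were the 5 longest members, 5 domains and 5 windows of 100 kb, the border windows, and the 1 Mb windows with most and fewest members. The members and lists were chosen with earlier results of these data known. Gene names came from RefSeq for ARS-UCD2.0, a different build, and were used only for counts and order. Routines were tested on simulated data. Software was pandas 2.3.3, scipy 1.17.1 and numpy 2.4.6 under Python 3.11.15. Alternatives covered length, joining of close peaks, covered bases, overlap, borders, window size and domain gaps.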

Additional observations from a re-analysis of the deposited data

How the results depend on the processing

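No paired analysis was possible because 1 library stood for every group, and no result had a test. Of 52 alternatives, 18 stayed inside the interval of the reported value (for correlations within 0.1, for domain numbers within 1.5 times), 31 moved beyond it and 3 changed sign. With peaks of at least 500 bp, the log2 ratios were 5.86 (H3K9me3, span, 4 control peaks), 5.52 (H3K9me3, rest of chromosome 18, 1 control peak), 1.05 (H3K27ac), 1.87 (Pol II, 3 control peaks) and -0.027 (H3K9ac, 53 to 52 peaks, a change of sign). Joining peaks less than 1 kb apart gave 2.42 for H3K9me3 in the span and -0.078 for Pol II, and leaving out peaks that met 5 or more other lists gave -0.0052 for Pol II, both changes of sign around 0. Covered bases gave 3.36 for H3K9me3 in the span. In about the first 10% of the rows, an alternative chosen after seeing the data that took 5.36% to 11.1% of a list, the ratios were 3.93 for H3K9me3 in the span, 0.71 for H3K9ac and 0.97 for Pol II.

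Under an overlap of at least 50% of the peak, 500 bp in both lists, or covered bases, members met by control H3K9me3 came to 2.91%, 0.431% and 3.45%, by butyrate H3K27ac to 1.28%, 0.431% and 1.21%, by butyrate H3K9ac to 0.613%, 0.431% and 0.586%, and by butyrate Pol II to 1.07%, 0.431% and 1.18%. Control H3K9me3 peaks met by members came to 35.1%, 25% (1 of 4) and 35.5%. The density of the span over the rest of the chromosome was 10.1 times for peaks of at least 500 bp, 1.95 times after joining and 3.37 times by covered bases. The median length was 302.5 bp after joining and 291 bp without the shortest peaks. Domains numbered 106 with gaps under 10 kb and 43 with gaps under 50 kb. No other alternative run for the log2 ratios or the correlation changed its sign. Window shares, distances, domain lengths and contrasts of dense with other windows were computed in 1 way only. Depth, replicate spread and peak height could not be assessed from these lists, and the causes of the shifts were not tested.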

Other observations

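The rows of the lists are not in genome order but in runs that each follow genome order, as a table sorted by a value with many ties would be. What value ordered them is not given in the sources used here. Peaks early in the lists were longer, with a median of 317 bp in about the first 10% of the butyrate H3K9me3 list and 226 bp in the remainder. Those first rows held 411 members, or 21.0% (19.2% to 22.9%), against 8.68% of the peaks in the rest of chromosome 18 and 9.80% of those on the other chromosomes. These rows belong to the list that chose the span and go with peak length, so the difference is descriptive. In the control H3K9me3 list the span had 27 of its 251 peaks in the first rows, or 10.8% (7.21% to 15.3%), against 8.96% and 8.74%. In the butyrate Pol II list it had 41 of 283, or 14.5% (10.6% to 19.1%), against 6.04% and 9.29%. For H3K27ac after butyrate the shares were 11.6%, 9.70% and 9.999%.

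A few members met most of the lists. Peaks of 5 or more of the other 7 lists met 5 members, or 0.255% (0.0829% to 0.595%), against 0.141% of H3K9me3 peaks in the rest of chromosome 18 and 0.595% on the other chromosomes. All 7 met 1 member, 0 peaks in the rest and 32 elsewhere.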
